A study of Mus musculus with 9 samples.

Results

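The genes described here are 33 genes of the tricarboxylic acid cycle and of pyruvate oxidation, measured by RNA-Seq in inguinal white adipose tissue (iWAT) of mice. They were taken by gene symbol from a fixed list of 33 names, and all 33 were found among the 24539 genes of the count table. All 33 also passed edgeR's filter on low counts, which kept 16745 genes for testing. By role they are 20 cycle enzymes, 7 genes for the entry of pyruvate (the mitochondrial carrier, the pyruvate dehydrogenase complex and pyruvate carboxylase) and 6 kinases and phosphatases of pyruvate dehydrogenase. The mice were C57BL/6 animals on chow diet, either Adi-Tet1KO (KO), in which Fabp4-Cre deletes the DNA dioxygenase gene Tet1, or floxed Tet1 controls (WT). They were kept at room temperature (RT; 2 WT and 2 KO mice) or placed at 4 °C for 4 h (cold; 3 WT and 2 KO mice), and each mouse gave 1 library. Fabp4-Cre is known to act in macrophages and some other cells as well as in adipocytes. Neither the labels nor the methods read here state the age and sex of these 9 mice. The series text speaks of fractionated adipocytes and 3 mice a group, whereas the labels name frozen iWAT as the source.

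The cycle oxidizes acetyl-CoA in the mitochondrial matrix and passes the electrons to the respiratory chain. Pyruvate from glycolysis enters the matrix through the MPC1-MPC2 carrier and is turned into acetyl-CoA by the pyruvate dehydrogenase complex, which the kinases PDK1 to PDK4 switch off and the phosphatases PDP1 and PDP2 switch on. In white fat, citrate also leaves the cycle for the synthesis of fatty acids. In brown and beige fat, the chain that the cycle feeds is uncoupled by UCP1 and releases heat.

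The housing of KO mice 1781 and 1786 is uncertain. Going by its title 1781 was an RT mouse, yet its count column says cold, and for 1786 these 2 labels are the other way round. The column names were followed here, and medians and named genes that turn on this choice are also given with the titles. Comparisons of values within a housing were made by the column names only, unless said otherwise. Library totals were 47605902 to 56292251 counts, and replicates of a group correlated at 0.98 to 0.988 across genes, which are not independent replicates. Levels are CPM, that is counts scaled to the size of each library after TMM normalization. Tet1 itself had 4.51 and 4.01 CPM in WT and 12.3 and 5.91 CPM in KO at RT, and 5.33, 3.87 and 3.98 CPM in WT and 10.2 and 5.30 CPM in KO in cold (mice 1788, 1810, 1786, 1814, 1773, 1783, 1812, 1781 and 1782 in this order, which is kept below). Its gene count was thus not lower in the KO libraries. A gene count does not show whether an exon was deleted, so KO and WT below mean the libraries labelled so. Adipocyte markers (9 of 9 above 1 CPM in every library) summed to 15958.7 CPM in mouse 1781 and to 25794.2 to 36942.7 CPM in the other 8 mice. Mouse 1781 also held the highest sum of the 5 skin markers found, 66.6 CPM against 3.39 to 25.4 CPM elsewhere.

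Compared per length, the 33 genes covered a wide range of levels. Values here are CPM per kilobase of the gene length that the authors used. Pcx, pyruvate carboxylase, which makes oxaloacetate from pyruvate, had the highest mean over the 9 libraries, at 397, with a range of 218 to 561. Pdha1, the catalytic alpha subunit of pyruvate dehydrogenase, followed at 254, Mdh2, the mitochondrial malate dehydrogenase, at 242 and Cs, citrate synthase, at 239. Idh3a, the catalytic subunit of the NAD-dependent isocitrate dehydrogenase, was at 119 and Ogdh at 73. Of the kinases, Pdk4 had a mean of 98.9, Pdk2 60.9, Pdk1 15.1 and Pdk3 5.81. The phosphatases were at the bottom, with 5.73 for Pdp2 and 2.33 for Pdp1. Of the 32 steps between neighbours in this order, 29 joined genes whose ranges over the 9 libraries overlapped. The 3 without overlap were those from Idh2 to Suclg2, from Pdk1 to Pdk3 and from Pdp2 to Pdp1.

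**Figure D1:**
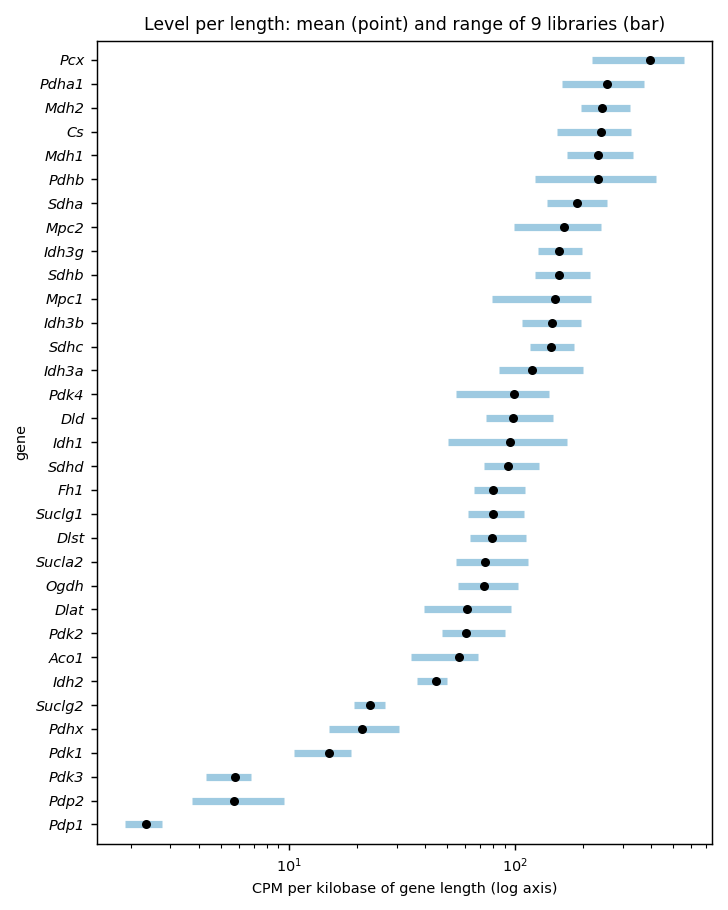
Level per gene length of the 33 genes, as CPM per kilobase on a log axis. Points are means and bars the range of the 9 libraries; Pcx is highest at 397 and Pdp1 lowest at 2.33.

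Most of the 33 genes had higher values in KO than in WT libraries, but none passed edgeR's quasi-likelihood test. At RT, 31 of 33 had a positive log2 fold change (all genes tested 49.1%), with a median of 0.28 against -0.00518 for all genes. In cold, 28 of 33 were positive (all genes 51.5%), with a median of 0.35 against 0.00785. Averaged over both housings, 29 were positive (all genes 50%), with a median of 0.28. These counts were the same with DESeq2-type (RLE) size factors. No member was called by edgeR's quasi-likelihood test (adjusted p under 0.05 and fold change above 1.5), with a lowest adjusted p of 0.593 at RT, 0.433 in cold and 0.204 for the average. Few genes were called at all: 0.0358% of the genes tested were higher and 0% lower at RT, 0.0776% higher and 0% lower in cold, and 0.113% higher and 0.0119% lower in the average. At an unadjusted p under 0.05, 2 members were higher and 0 lower at RT (all genes 2.68% and 4.72%), 7 higher and 0 lower in cold (3.32% and 2.77%), and 12 higher and 0 lower in the average (5.14% and 6.48%). The 12 were Idh3a, Idh3b, Idh3g, Ogdh, Dlst, Sucla2, Suclg1, Pdhb, Dlat, Pdhx, Pdk4 and Pdp2. DESeq2 called 0 members at RT, Pdk4 in cold (higher calls 0.378% of all genes) and Sucla2, Pdhb, Pdk4 and Pdp2 higher in the average (0.721%). The average reuses the libraries of both housings. The paper's own edgeR analysis, at the same thresholds, lists Pdk4 among the genes higher in KO in cold. It used the same libraries, so it is not separate evidence.

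The higher levels lay mainly in KO mice 1814 and 1782. Relative to the WT mean of the same housing, the members had a median log2 level of 0.11 in mouse 1786 and 0.38 in mouse 1814 at RT. In cold the median was 0.032 in mouse 1781 and 0.64 in mouse 1782. Among WT mice it was -0.054 and 0.054 at RT, and -0.20 in mouse 1773, 0.12 in mouse 1783 and 0.099 in mouse 1812 in cold. Mouse 1782 held the highest level of 19 members and mouse 1814 that of 10, whereas they were highest for 13.9% and 7.85% of all genes. WT mouse 1773 held the lowest level of 22 members (8.86% of all genes). Without mouse 1814 the median log2 fold change at RT was 0.095. In cold it was 0.023 without mouse 1782, 0.23 without mouse 1773 and 0.62 without mouse 1781. The averaged median was 0.16 without mouse 1782, 0.43 without mouse 1781 and 0.50 without both mice of uncertain housing. Grouping both mice by title gave medians of 0.21 (RT) and 0.44 (cold). The number of members at an unadjusted p under 0.05 also turned on single mice. In cold the 7 higher became 2 without WT mouse 1773 and 4 without WT mouse 1783. That number depends too on the spread, which the 4 groups share in 1 fit. Leaving out a mouse of one housing can therefore change it in the other, where the values compared stay the same. The median at RT was 0.28 without mouse 1781 and 0.28 without mouse 1782. Such numbers are not given for fits that leave 1 mouse in a group. In bulk tissue, a different number of cells of a type and a different amount of RNA per cell cannot be told apart.

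**Figure D2:**
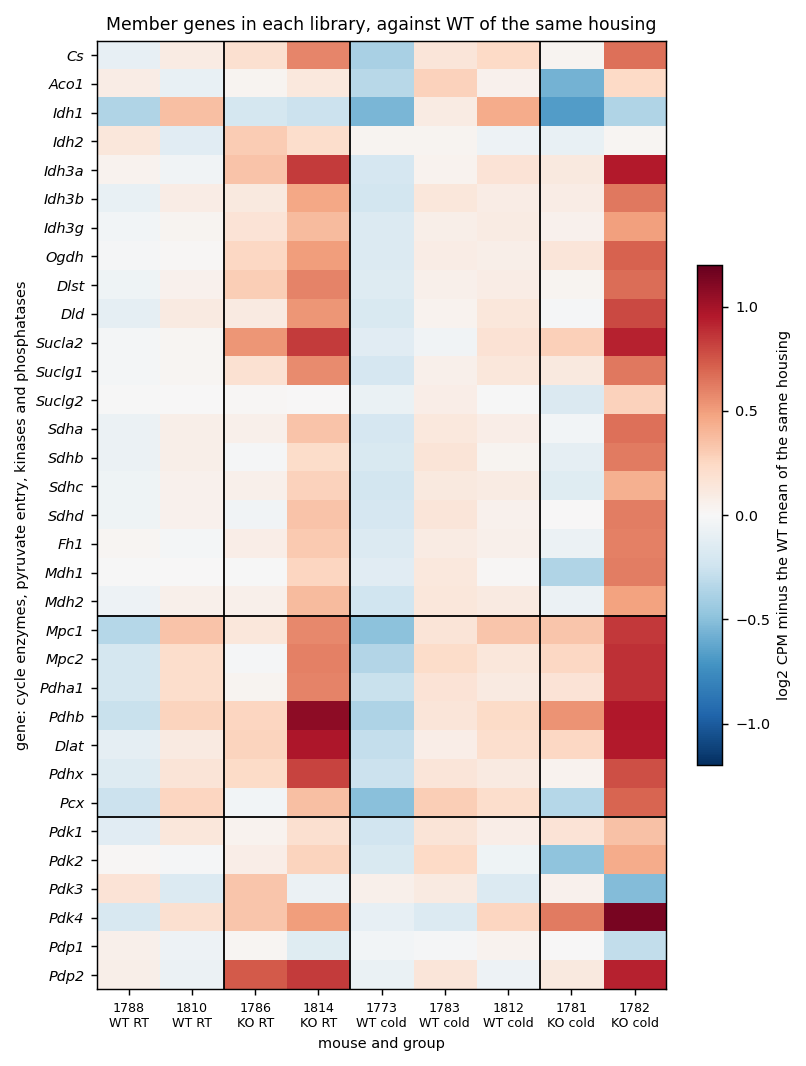
Each row is a gene and each column a mouse, and colour is log2 CPM minus the WT mean of the same housing (red higher, blue lower). The columns of KO mice 1814 and 1782 are mostly red, with medians of 0.38 and 0.64, while those of 1786 and 1781 are pale, with medians of 0.11 and 0.032.

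By the column names, markers of beige and brown fat were higher in KO than in WT libraries of each housing. The 9 markers (among them Ucp1, Cidea and Dio2) summed to 97.4 to 116 CPM in WT and 514 to 1039.4 CPM in KO at RT, and to 372 to 523 CPM in WT and 1650.3 to 2376.8 CPM in KO in cold. With the titles the groups in cold overlapped, as KO mouse 1786 had 514 CPM. In WT the sums were higher in cold than at RT, whereas the members' median log2 fold change there was -0.0345. Every one of the 9 markers had a positive averaged log2 fold change in KO against WT, with a median of 2.04, and 4 were called. Within each housing the KO mouse with the larger beige sum (1814 with 1039.4 CPM, 1782 with 2376.8 CPM) was the mouse with the larger median over the members. By sample title this order did not hold at RT, where mouse 1781 had the larger beige sum (1650.3 CPM) and, against WT at RT, a member median of -0.048 beside 0.38 in mouse 1814. Nor did it hold across the housings by the column names. There mouse 1781 had a smaller member median (0.032, against WT in cold) than mouse 1814 (0.38, against WT at RT). Each order rests on 1 pair of mice. Markers of macrophages, in which Fabp4-Cre is also active, summed to 1227 to 1628.1 CPM in WT and 712 to 951 CPM in KO at RT, with no overlap, and to 1045.8 to 1384.4 CPM in WT and 841 to 1388.5 CPM in KO in cold, where they overlapped. Of these 12 markers, 1 had a positive KO against WT value at RT (median -0.86) and 1 in the average (median -0.58), and 0 were called. Skeletal muscle markers summed to 60.1 to 118 CPM over the 9 libraries. Adipocyte markers in cold summed to 26928.4, 35833.7 and 32433.1 CPM in WT and 15958.7 and 36942.7 CPM in KO. At RT they summed to 27044.6 and 29014.7 CPM in WT and 25794.2 and 25977 CPM in KO. Fibroblast and progenitor markers in cold summed to 16451.1, 14708.8 and 13711.7 CPM in WT and 17223.9 and 11466.8 CPM in KO. Their sums at RT were 12860.4 and 13085.7 CPM in WT and 11204 and 12419.4 CPM in KO. The part of these markers in the members' levels was not tested.

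Among the cycle enzymes, Sucla2, the subunit that makes succinyl-CoA synthetase form ATP, stood apart between the genotypes. Its CPM were 124 and 128 in WT and 182 and 226 in KO at RT, and 123, 131 and 152 in WT and 164 and 256 in KO in cold. All 4 KO values lay above all 5 WT values. The log2 fold change was 0.69 ± 0.21 (SE) at RT, 0.63 ± 0.19 in cold and 0.66 ± 0.14 in the average, with adjusted p of 0.598, 0.671 and 0.204 by edgeR's quasi-likelihood test. In cold the value was 0.28 without mouse 1782 and 0.91 without mouse 1781. For the average, adjusted p ranged from 0.00439 (DESeq2) to 0.5 over the alternatives. Suclg2, the subunit of the GTP-forming enzyme, had 94.4 and 95.5 CPM in WT and 95.8 and 95.1 CPM in KO at RT, and 84.6, 94.4 and 89.1 CPM in WT and 79.0 and 108 CPM in KO in cold. Its averaged log2 fold change was 0.037 ± 0.097, with a 95% interval of -0.18 to 0.26, whereas that of Sucla2 was 0.34 to 0.99. Suclg1, the alpha subunit that both enzymes share, lay between them at 0.39 ± 0.13. Sucla2 lies at chr14:73525319-73596142 on the plus strand and Suclg2 at chr6:95473009-95718800 on the minus strand (GENCODE vM21, GRCm38).

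Ogdh, the first subunit of 2-oxoglutarate dehydrogenase, had 478 and 485 CPM in WT and 570 and 679 CPM in KO at RT, and 417, 499 and 493 CPM in WT and 516 and 767 CPM in KO in cold. Here too all 4 KO values exceeded all 5 WT values, and its averaged log2 fold change was 0.41 ± 0.14 (adjusted p 0.344, edgeR's quasi-likelihood test). Ogdh was named after its values had been seen. The other subunits of that complex, Dlst and Dld, had averaged log2 fold changes of 0.42 and 0.39. The NAD-dependent isocitrate dehydrogenase subunits Idh3a, Idh3b and Idh3g had 0.60, 0.34 and 0.28. The succinate dehydrogenase subunits Sdha, Sdhb, Sdhc and Sdhd were at 0.17 to 0.28, and Fh1 (fumarase), Mdh1, Mdh2 and Cs at 0.17 to 0.38. The cytosolic Idh1 and Aco1 were on the other side of 0, at -0.42 and -0.026, and the NADP-dependent matrix enzyme Idh2 was at 0.11. In both housings Idh1 was the gene with the lowest KO against WT value of all 33, at -0.28 ± 0.32 and -0.57 ± 0.30.

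The promoters of Sucla2, Suclg2, Ogdh and Sdhd are printed. Sucla2 and Ogdh separated the genotypes, Suclg2 did not, and Sdhd held the letters of 2 motifs. Dlat also separated the genotypes, but its window is not printed. The windows run from 250 bases before to 50 after a gene start (RefSeq, GRCm38.p6) and are printed 5′ to 3′ on the strand of the gene. Capitals mark every match, on either strand, to the letters of 4 motifs: TCAAGGTCA of oestrogen-related receptors (ERR), GCGCANGCGC of NRF1, GTAAACA of FOXO factors and TGACGTCA, the cAMP response element.
Sucla2: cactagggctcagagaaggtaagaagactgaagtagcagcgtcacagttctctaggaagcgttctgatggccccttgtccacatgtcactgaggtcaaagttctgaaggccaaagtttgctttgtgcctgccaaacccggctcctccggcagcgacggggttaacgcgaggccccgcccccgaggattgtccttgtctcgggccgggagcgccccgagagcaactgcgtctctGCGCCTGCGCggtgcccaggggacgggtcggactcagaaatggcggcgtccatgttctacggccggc
Suclg2: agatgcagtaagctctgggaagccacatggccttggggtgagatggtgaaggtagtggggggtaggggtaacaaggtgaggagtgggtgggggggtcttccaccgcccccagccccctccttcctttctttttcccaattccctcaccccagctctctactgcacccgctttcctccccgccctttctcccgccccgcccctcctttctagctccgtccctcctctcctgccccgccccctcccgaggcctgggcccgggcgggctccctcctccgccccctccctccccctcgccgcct
Ogdh: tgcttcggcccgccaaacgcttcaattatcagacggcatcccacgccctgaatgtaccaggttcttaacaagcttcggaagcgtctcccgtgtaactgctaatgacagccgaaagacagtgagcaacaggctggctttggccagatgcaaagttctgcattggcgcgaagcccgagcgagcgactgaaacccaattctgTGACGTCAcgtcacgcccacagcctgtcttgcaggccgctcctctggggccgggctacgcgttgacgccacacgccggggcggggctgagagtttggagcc
Sdhd: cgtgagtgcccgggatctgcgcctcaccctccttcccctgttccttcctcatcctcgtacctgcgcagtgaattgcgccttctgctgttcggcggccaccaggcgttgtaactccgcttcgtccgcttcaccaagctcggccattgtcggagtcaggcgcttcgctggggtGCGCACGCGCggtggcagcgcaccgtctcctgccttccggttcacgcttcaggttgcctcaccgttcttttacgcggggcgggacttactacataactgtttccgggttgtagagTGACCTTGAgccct
The Sucla2 window (chr14:73552536-73552835, plus strand) held the NRF1 letters, and the Suclg2 window (chr6:95718797-95719096, minus strand) held none of the 4. The Dlat window (chr9:50659731-50660030, minus strand) also held none of the 4, as did those of Pdhb, Pdk4 and Pdp2. A link between these letters and the KO against WT values was not tested. The printed Ogdh window (chr11:6291347-6291646, plus strand) held the cAMP element, which does not overlap another match. Ogdh windows that start further along, at 6291920, 6292308 and 6292329, held none of the 4. The Sdhd window (chr9:50603800-50604099, minus strand) held both the NRF1 and the ERR letters. The table gave 40 windows for 30 of the 33 genes, some of them overlapping. NRF1 letters were in 4 of the 40 (10%; Dld, Sdha, Sdhd and Sucla2) against 4.6% of all 32851 windows. The cAMP element was also in 4 (10%) against 1.79%, but 3 of the 4 are overlapping Ogdh windows around the same site, so that by gene it was in 2 of 30 (Mdh2 and Ogdh). ERR was in 1 (2.5%) against 0.423%, and FOXO in 0 against 3.65%. A match of letters is not a bound site.

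Of the 7 genes for pyruvate entry, all had positive log2 fold changes in KO against WT in each housing, with a median of 0.33 at RT and 0.57 in cold. Dlat, the acetyltransferase core (E2) of the pyruvate dehydrogenase complex, had 196 and 226 CPM in WT and 254 and 414 CPM in KO at RT. In cold it had 171, 220 and 240 CPM in WT and 247 and 404 CPM in KO. Its 4 KO values were all above its 5 WT values, although mouse 1781 exceeded the highest WT mouse by little. The log2 fold change was 0.66 ± 0.29 at RT and 0.63 ± 0.26 in cold (adjusted p 0.681 and 0.806, edgeR's quasi-likelihood test). At RT it ranged from 0.27 without mouse 1814 to 0.98 without mouse 1786. Pdhb, the beta subunit of the first enzyme (E1), had the largest averaged value of the 33 genes, 0.72 ± 0.21 (adjusted p 0.304, edgeR's quasi-likelihood test). Its CPM were 262 and 381 in WT and 378 and 664 in KO at RT, where the groups overlapped, and 195, 278 and 295 in WT and 366 and 489 in KO in cold, where they did not. Pdha1, the alpha subunit, was at 0.44, and Pdhx, which binds the E3 subunit Dld to the core, at 0.49. The carrier genes Mpc1 and Mpc2 were at 0.45 and 0.45, and Pcx at 0.19 ± 0.26. Pdha1 shares 603 exon bases with Map3k15, and Mpc1 shares 480 with 4930506C21Rik. Mdh1 and Idh3b share 52 and 5 bases with Wdpcp and Nop56. The strand setting of the counting is not given, so reads of such overlaps cannot be assigned.

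The kinases and phosphatases did not move as 1 group. Pdk4, the kinase induced by fasting and fatty acids, had 326 and 424 CPM in WT and 468 and 526 CPM in KO at RT. In cold it had 212, 203 and 273 CPM in WT and 351 and 501 CPM in KO. The KO values were above the WT values of the same housing in both cases, and the gap was wider in cold. With the titles, KO mouse 1781 (351 CPM) lay inside the WT range at RT, while the groups in cold stayed apart. The log2 fold change was 0.41 ± 0.22 at RT and 0.89 ± 0.20 in cold (adjusted p 0.733 and 0.433, edgeR's quasi-likelihood test). In cold, adjusted p ranged from 0.0117 (DESeq2) to 1 over the alternatives. The difference between the housings, 0.49 ± 0.30, did not pass the test (adjusted p 1, edgeR's quasi-likelihood test). Pdk1, Pdk2 and Pdk3 had averaged log2 fold changes of 0.18, 0.11 and -0.038. Pdk4 lies at chr6:5483351-5496309 on the minus strand.

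Pdp2, a phosphatase that reactivates the complex, had the highest averaged log2 fold change of the 6 kinases and phosphatases. At RT it had 15.5 and 14 CPM in WT and 24.6 and 26.3 CPM in KO, with no overlap. In cold it had 17.7, 20.7 and 17.9 CPM in WT and 20.3 and 35.7 CPM in KO, and mouse 1781 lay inside the WT range. With the titles the KO and WT values of Pdp2 did not overlap in either housing. The log2 fold change was 0.79 ± 0.23 at RT, 0.58 ± 0.21 in cold and 0.68 ± 0.16 in the average (adjusted p 0.593, 0.78 and 0.234, edgeR's quasi-likelihood test). The value in cold was 0.11 without mouse 1782 and 0.92 without mouse 1781. Without mice 1781 and 1786, both Sucla2 and Pdp2 were called higher in the average (0.236% of all genes were), and without mouse 1781 alone Pdp2 was (0.129%). Over all alternatives its averaged adjusted p ranged from 0.0114 to 0.516. Pdp1, the other phosphatase, was at -0.10 ± 0.10 in the average, with 8.89 to 12.9 CPM over the 9 libraries.

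**Figure D3:**
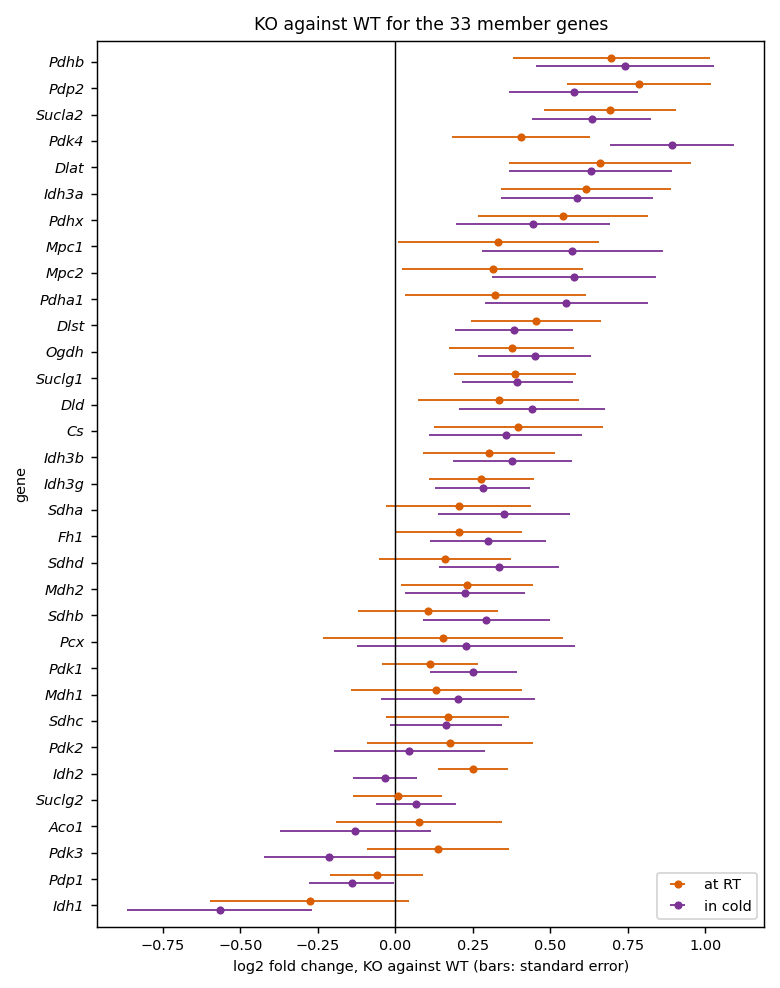
Log2 fold change of KO against WT at RT (orange) and in cold (purple) for the 33 genes, ordered by the average of both; bars are standard errors. The points run from Pdhb (0.70 at RT, 0.74 in cold) at the top to Idh1 (-0.28 and -0.57) at the bottom.

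Groups of values that do not overlap were also counted. They rest on the same libraries and grouping as the fold changes, so they are not an independent check. At RT, 18 members had both KO values above both WT values and 0 had them below (all genes 19.8% and 23.1%). In cold there were 8 and 0 (all genes 10% and 9.07%), namely Ogdh, Sucla2, Mpc2, Pdha1, Pdhb, Dlat, Pdk1 and Pdk4. In both housings there were 4 and 0 (3.67% and 4.41%): Ogdh, Sucla2, Dlat and Pdk4. All 4 KO values were above all 5 WT values for 3 members and below for 0 (1.3% and 1.95%). With the titles, the members with both KO values above both WT values at RT were Idh3a, Ogdh, Dlst, Sucla2, Suclg1, Dlat and Pdp2. In cold the same 8 stayed above WT, along with others such as Cs, Dlst and Pdp2, and Pdp1 was below. In both housings these were then Ogdh, Dlst, Sucla2, Dlat and Pdp2, without Pdk4. The share of all genes was not counted with the titles.

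**Figure D4:**
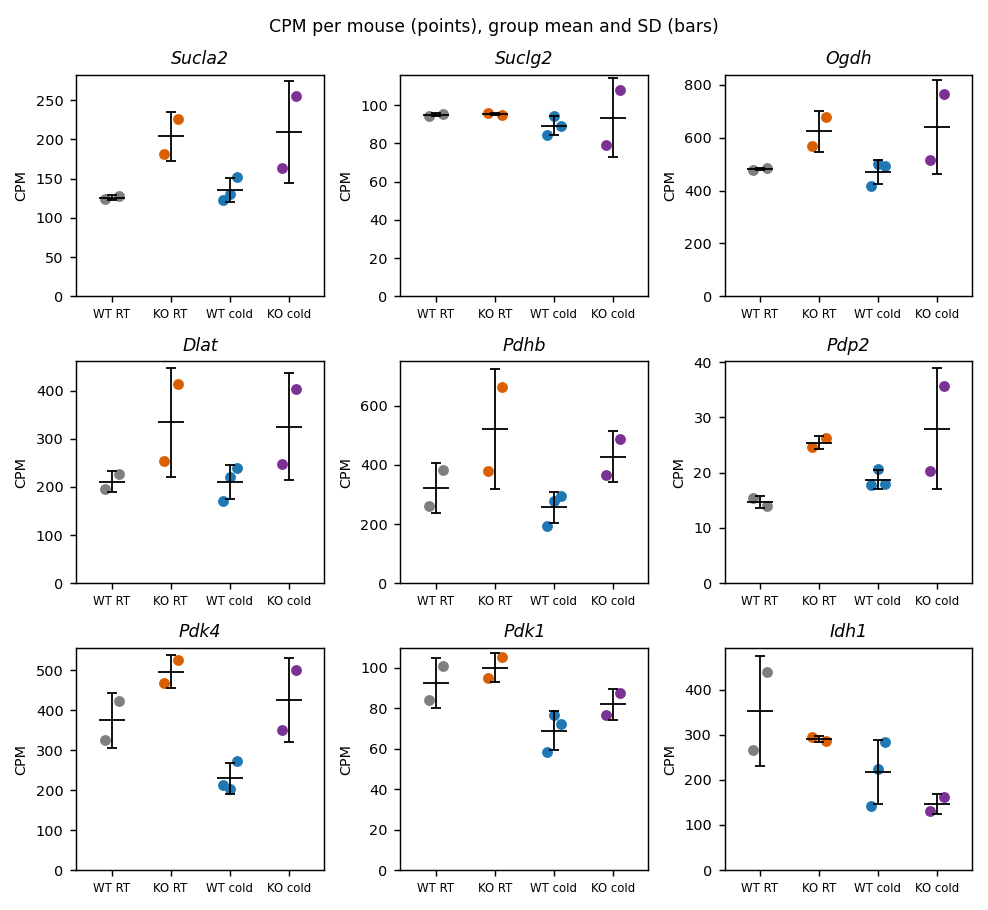
CPM of 9 genes in each mouse (points), with group means and SD as bars, in WT and KO at RT and in cold. For Sucla2, Ogdh and Dlat the 4 KO points lie above the 5 WT points, and Suclg2 stays between 79 and 108 CPM. Idh1 has its lowest group mean in KO in cold, at 131 and 162 CPM, but WT mouse 1773 in cold has 143 CPM.

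Ratios within a library do not depend on the library scaling, and 9 were chosen after the values had been seen, so they carry no test. The ratio of Sucla2 to Suclg2 was 1.32 and 1.34 in WT and 1.90 and 2.38 in KO at RT, and 1.46, 1.39 and 1.71 in WT and 2.08 and 2.37 in KO in cold. All 4 KO ratios were above the highest WT ratio. Pdp2 to Pdp1 was 1.39 to 1.67 in the 5 WT mice and 2.46, 2.96 and 3.51 in KO mice 1786, 1814 and 1782, while mouse 1781 with 1.63 was inside the WT range. Pdk4 to the sum of the other kinases was 1.51 and 1.86 in WT and 2 and 2.04 in KO at RT, and 0.725 to 1.14 in WT and 1.58 and 1.70 in KO in cold. It was thus lower in cold than at RT in all WT mice. Idh3a to Idh1 was 0.498 and 0.871 in WT at RT and 2.19 and 3.16 in KO in cold, with the other 5 mice between 0.967 and 1.61. Subunit pairs differed among themselves. Mpc1 to Mpc2 was 0.849 to 1.08 and Sdhb to Sdha 0.286 to 0.332 over the 9 libraries, with WT and KO overlapping for both. Pdhb to Pdha1 was 0.393 to 0.461 in WT and 0.492, 0.586, 0.549 and 0.448 in KO mice 1786, 1814, 1781 and 1782, so that mouse 1782 alone lay inside the WT range. Idh3a to Idh2 was 2.74 to 3.76 in WT and 3.15 to 6.14 in KO, and Pdk4 to Pdp2 was 9.81 to 30.4 in WT and 14 to 20 in KO, both with overlap.

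**Figure D5:**
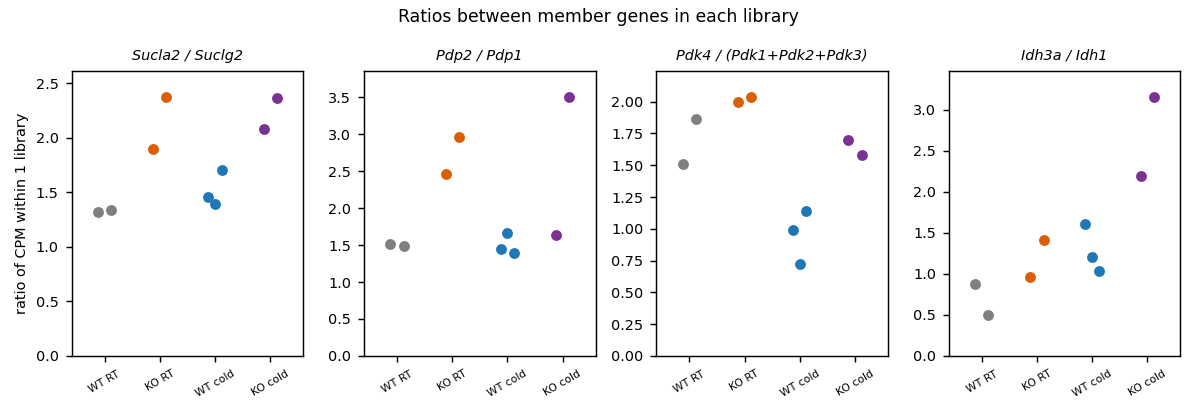
Ratios of CPM between member genes within each library (points), for WT and KO at RT and in cold. The ratio of Sucla2 to Suclg2 is at most 1.71 in WT and at least 1.90 in KO, and that of Pdk4 to the other kinases is lowest in WT in cold.

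After 4 h of cold the members' values lay on both sides of those at RT. In WT, 11 of 33 had a positive log2 fold change (all genes 49.1%), with a median of -0.0345 against -0.00659 for all genes. In KO it was 14 of 33 (all genes 51.3%), with a median of -0.0291 against 0.00922. Averaged over genotype, 15 were positive (all genes 50.5%), with a median of -0.0216 against 0.00362. These medians turned on single mice. In KO the median was -0.35 with 2 positive without mouse 1782, 0.23 with 27 positive without mouse 1781, -0.14 with 4 positive without mouse 1786 and 0.17 with 25 positive without mouse 1814. With the titles it was 0.13 with 28 positive, and without both mice of uncertain housing 0.11 with 19 positive. In WT it was 0.057 with 21 positive without mouse 1773 and 0.00339 with 17 positive without mouse 1810. The averaged median ran from -0.21 with 4 positive (without mouse 1782) to 0.11 with 23 positive (without mouse 1781), and was 0.058 with the titles. No member was called by edgeR's quasi-likelihood test, with a lowest adjusted p of 0.194 in WT, 0.205 in KO and 0.06 in the average. Of all genes, 0.197% were called higher and 0.173% lower in WT, 0.191% and 0.143% in KO, and 1.6% and 1.55% in the average. At an unadjusted p under 0.05, 1 member was higher and 3 lower in WT (all genes 6.04% and 7.13%), 0 higher and 1 lower in KO (8.67% and 6.89%), and 1 higher and 3 lower in the average (12.1% and 11.4%). DESeq2 called Pdk4 lower in WT (lower calls 1.53% of all genes), Idh1 lower in KO (1.86%) and Idh1 lower in the average (2.89%).

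Idh1, the cytosolic enzyme that makes NADPH from isocitrate, had the lowest log2 fold change of the 33 genes in cold against RT in KO and in the average, while in WT it was -0.70, next to Pdk4 at -0.71. Its CPM were 267 and 439 in WT and 296 and 287 in KO at RT, and 143, 224 and 285 in WT and 131 and 162 in KO in cold. The KO groups did not overlap, whereas WT mouse 1812 in cold lay above WT mouse 1788 at RT. The averaged log2 fold change was -0.85 ± 0.22 (adjusted p 0.06, edgeR's quasi-likelihood test), with adjusted p from 0.00228 (DESeq2) to 0.94 over the alternatives. Without mouse 1812 it was called lower (lower calls 1.14% of all genes), while with the titles as grouping the value in KO was 0.13 in place of -0.99. Aco1, the cytosolic aconitase that also binds iron-responsive RNA elements, had 309 and 274 CPM in WT and 298 and 318 CPM in KO at RT, and 188, 286 and 246 CPM in WT and 160 and 279 CPM in KO in cold. Its log2 fold change in KO was -0.49 ± 0.27 (adjusted p 0.436, edgeR's quasi-likelihood test), and 0.27 with the titles. Idh1 lies at chr1:65158616-65186500 and Aco1 at chr4:40143081-40198338.

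Among the regulators of the complex, Pdk4 and Pdk1 had lower values in cold and Pdp1 and Pdk2 higher ones. Pdk4 in WT was 326 and 424 CPM at RT and 212, 203 and 273 CPM in cold, with no overlap, a log2 fold change of -0.71 ± 0.20 and an adjusted p of 0.194 by edgeR's quasi-likelihood test. In KO, 468 and 526 CPM at RT overlapped with 351 and 501 CPM in cold, at -0.22 ± 0.22. Pdk1 was 83.8 and 101 CPM in WT and 94.8 and 105 CPM in KO at RT, and 58.2, 76.4 and 72.1 CPM in WT and 76.6 and 87.4 CPM in KO in cold. It was lower in cold without overlap in each genotype, with an averaged log2 fold change of -0.35 ± 0.11 (adjusted p 0.09, edgeR's quasi-likelihood test). With the titles the KO values overlapped and the value in KO was 0.00609 in place of -0.28. Pdp1 was 10.3 and 9.40 CPM in WT and 9.98 and 8.89 CPM in KO at RT, and 12.2, 12.4 and 12.9 CPM in WT and 12.5 and 10.2 CPM in KO in cold. It was higher in cold without overlap in each genotype, at 0.30 ± 0.10 (adjusted p 0.122, edgeR's quasi-likelihood test), though with the titles its KO values overlapped. Pdk2 had 117 to 142 CPM in the 4 mice at RT and 116 to 220 CPM in the 5 mice in cold, and was called higher only when mouse 1781 was left out (1.64% of all genes were). In WT, cold and RT did not overlap for 3 higher members (Pdk2, Pdp1 and Pdp2) and 3 lower members (Sdha, Pdk1 and Pdk4), where all genes gave 15.7% and 17.7%. In KO they did not for 1 higher (Pdp1) and 4 lower (Aco1, Idh1, Idh2 and Pdk1), where all genes gave 23.3% and 20.7%.

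No member passed the test for a KO effect that differs between cold and RT. The log2 differences had a median of 0.0075 with 18 positive, and edgeR's quasi-likelihood test gave an adjusted p of 1 for every member. At an unadjusted p under 0.05 there were 0 members higher and 0 lower (all genes 1.87% and 0.866%), and DESeq2 called 0. The median was -0.28 with 3 positive without mouse 1782 and 0.25 with 29 positive without mouse 1781. It was -0.12 with 5 positive without mouse 1786, 0.21 with 26 positive without mouse 1814, -0.11 with 11 positive without WT mouse 1773 and 0.20 with 27 positive with the titles. The lowest p belonged to Idh2, the mitochondrial NADP-dependent isocitrate dehydrogenase, Pdk4 and Pdk3. Idh2 had 80.9 and 67.1 CPM in WT and 91.0 and 85.0 CPM in KO at RT, and 84.0, 83.9 and 78.9 CPM in WT and 77.2 and 83.5 CPM in KO in cold, a difference of -0.28 ± 0.15. Pdk3 had 12.9 and 10.3 CPM in WT and 14.5 and 11.0 CPM in KO at RT, and 13.9, 14.3 and 11.9 CPM in WT and 13.8 and 9.25 CPM in KO in cold, a difference of -0.35 ± 0.31.

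Other genes of the pathway gave a mixed picture. Of 16 further cycle and pyruvate oxidation genes tested, 10 had a positive averaged KO against WT value, with a median of 0.10, and edgeR called 0, while 1 higher and 2 lower had an unadjusted p under 0.05 and DESeq2 called 1 higher. Of all genes tested, 50% were positive, 5.14% were higher and 6.48% lower at that unadjusted p, and DESeq2 called 0.721% higher. Nnt, which makes matrix NADPH, was at -0.63 ± 0.23 and Lipt2, which acts in lipoate attachment, at -0.39 ± 0.16. Of 23 genes that feed or drain the cycle, 17 were positive, with a median of 0.081, and edgeR called 0, while 6 higher and 1 lower had an unadjusted p under 0.05 and DESeq2 called 3 higher. These 3, also those of lowest p in edgeR, were Acss1 (mitochondrial acetyl-CoA synthetase) at 0.65 ± 0.12, Ldhb (a lactate dehydrogenase subunit) at 0.71 ± 0.14 and Me3 (a mitochondrial malic enzyme) at 0.84 ± 0.19, with adjusted p of 0.177, 0.179 and 0.234 by edgeR's quasi-likelihood test. Of the 23, the paper's own edgeR list of genes higher in KO in cold, from the same libraries, holds Acss1, Me1 and Ldhd. In cold against RT averaged over genotype, Pck2, the mitochondrial PEP carboxykinase, had 0.53 ± 0.12 (adjusted p 0.0428, edgeR's quasi-likelihood test) but a fold change of 1.45, under the threshold, so it was not called. Neither edgeR nor DESeq2 called a gene of either list in that comparison. There 4 higher and 3 lower of the 23, and 0 higher and 1 lower of the 16, had an unadjusted p under 0.05. Of all genes tested, 12.1% were higher and 11.4% lower at that p. Slc25a12 (an aspartate-glutamate carrier) was at 0.32 ± 0.094 and Ldhb at 0.42 ± 0.14. D2hgdh, Sdhaf3 and Sdhaf1, at -0.40, -0.38 and 0.24, had the lowest p of the further cycle genes.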

How the data were processed

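The authors aligned BGISEQ reads to mm10 with STAR, kept reads that mapped to 1 place, removed mitochondrial reads and deposited counts per gene from featureCounts. For versions, annotation and strand setting the sources used here give nothing. The RPKM columns that the authors deposited beside the counts served only to recover gene length, in 7 libraries (levels per length are CPM over that length), and 2 RPKM columns (mice 1781 and 1786) were not used. All 9 libraries entered 1 edgeR 4.0.16 fit of 4 groups (R 4.3.3; limma 3.58.1; filterByExpr, TMM, robust glmQLFit, glmQLFTest), with Benjamini-Hochberg adjustment over 16745 genes. The KO against WT tests were checked on simulated data. SE was taken as |log2 fold change| over the root of the F statistic. DESeq2 1.42.0 and other settings were alternatives. Members and lists were chosen with earlier results of these data known. Every member is named; per-mouse values are given for called members and the 3 of lowest p per comparison. The values of 1 gene of the related lists are not reported here. Log2 CPM used a prior count of 2. Figures were made with matplotlib 3.10.9 in Python 3.11.15.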

Additional observations from a re-analysis of the deposited data

How the results depend on the processing

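Of 218 counts of called members under the alternatives, 209 equalled the reported count of 0. DESeq2 called 1 member higher for KO against WT in cold (0.378% of all genes) and 4 higher for KO against WT averaged over housing (0.721%). It called 1 lower each for cold against RT in WT (1.53%), in KO (1.86%) and averaged over genotype (2.89%). Without mice 1781 and 1786, 2 members were called higher in KO against WT averaged over housing. With each mouse left out in turn, the members called higher ranged from 0 to 1 for KO against WT averaged over housing (1 without mouse 1781) and from 0 to 1 for cold against RT averaged over genotype (1 without mouse 1781), and those called lower in the latter from 0 to 1 (1 without mouse 1812). Of 21 values of genes named for a comparison, 18 kept their direction under every alternative. The other 3 reversed for cold against RT in KO when mice 1781 and 1786 were grouped by sample title: Idh1 to 0.13, Pdk1 to 0.00609 and Aco1 to 0.27. The causes were not tested. No paired analysis was possible because the replicate numbers are mouse numbers and no group shares one with another. The fit of only the libraries compared could not be made for the averaged comparisons, which use all libraries. With 2 or 3 mice per group, leaving out a KO mouse leaves 1, whose spread is taken from the other groups.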
